A study of Mus musculus with 10 samples.

Results

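Irradiated mouse embryonic fibroblasts (MEFs) kept for 9 days below nilotinib-treated leukemia cells were compared with irradiated MEFs that received only the solvent DMSO. The comparison uses 6 of the 10 arrays of the series, 3 named MEFs + ALL + nilotinib and 3 named MEFs + DMSO, and the 21789 of 35557 probesets that carry 1 gene symbol, which stand for 19938 genes. Loci of the γ-satellite family were left aside. All MEFs were wild type, were irradiated with 1000 rad and grew in medium with murine IL-3. The MEFs + ALL + nilotinib dishes held 8093 cells, a Bcr/Abl transgenic acute lymphoblastic leukemia (ALL) line, preB in the labels and pro-B in the study's text, above a Transwell filter with pores of 0.4 µm, with 16 nM nilotinib in the medium. The MEFs + DMSO dishes held no ALL cells and no drug, and no filter is listed for them. The groups thus differ in cells, drug and filter, whose parts cannot be told apart here. The other groups of the series were MEFs + nilotinib, with 3 arrays of MEFs given 16 nM nilotinib without ALL cells, and MEFs + ALL + DMSO, with 1 array of MEFs below ALL cells in solvent. The labels call the arrays of a group biological replicates. The methods state that MEFs were plated on 3 dishes to give the triplicates, so errors and p-values measure the spread between dishes. Separate isolations of MEFs are not described. The ALL cells are 1 line from a transgenic mouse, and the filter passes diffusible molecules, so cell contact is not part of the model.

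Fibroblasts in bone marrow stroma and in feeder layers supply leukemia cells with matrix, chemokines and growth factors. Nilotinib blocks the ABL kinase that drives Bcr/Abl leukemia, and also the kinases KIT, PDGFRA and PDGFRB, of which fibroblasts carry the last pair. Fibroblasts read signals of neighbouring cells through NF-kB, which raises chemokines and their inhibitors, through TGF-β, BMP and Wnt factors and their secreted antagonists, and through sensors of oxygen and amino acids. ATF4 is the transcription factor that raises amino acid transport and synthesis genes when amino acids run short or proteins misfold.

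Values are log2 expression levels of the deposited table. The fibroblast label matched the markers, since the collagen genes Col1a1 and Col1a2, the fibronectin gene Fn1 and vimentin (Vim) had mean levels of 13.5, 13.2, 13.6 and 13.3 in MEFs + DMSO, and the 15 fibroblast markers summed to 66942 to 67899 in MEFs + ALL + nilotinib and 68874 to 70801 in MEFs + DMSO on the linear scale. Of 19 preB cell markers, 0 passed the test in either direction (1 had an unadjusted p under 0.05, with a lower level, as did 6.96% of all genes), and their summed level was 2613 to 2789 against 2569 to 2775. Members such as Cd79a, Vpreb1 and Rag1 lay at 5.40, 6.40 and 5.92 in MEFs + DMSO, and an array value does not fall to 0 for a gene that is off. The brightest of the list, Cd24a and Ebf1, lay at 9.41 and 9.08 there, so the sum does not read dim genes alone. Of 15 pan-leukocyte markers 1 passed as higher, and the 14 others summed to 3641 to 3930 against 3517 to 3858, with overlapping groups. Those 14 genes summed to 12027 on the single MEFs + ALL + DMSO array, and the preB markers to 11469. The methods state that 2 further dishes of that group had been discarded because ALL cells had entered them. A share of ALL cell RNA in any array was not tested.

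Among the 21789 probesets, 183 passed an adjusted p of 0.05 (limma with Benjamini-Hochberg adjustment over all 35557 probesets), which is 0.84%, while over all probesets 223 passed, or 0.627%, with 0.503% higher and 0.124% lower. The 183 probesets belong to 173 genes, 150 higher and 23 lower in MEFs + ALL + nilotinib. In all 183 the 3 arrays of one group lay apart from the 3 of the other, as they did for 24.7% of all probesets. Differences of called probesets ran from -0.95 to 1.14, and 5 exceeded 1 in size, so most changes were under 2-fold. Those 5 were Clca3a2, the largest at 1.14, and then Serping1, Penk, Folh1 and Ppbp. At an unadjusted p under 0.05, with 1 probeset per gene, 10.9% of all genes were higher and 6.96% lower, and unadjusted counts of gene lists stand against these shares. The median difference over all 19938 genes was 6e-05, and 50.0% of genes had a difference above 0. In this bulk measure fewer cells of a type and less RNA per cell cannot be told apart.

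The number of calls rested on each array, as the plot of calls with arrays left out shows. Without replicate 1, 2 or 3 of MEFs + ALL + nilotinib, 8, 70 and 16 genes were called higher and 1, 9 and 2 lower. Without replicate 1, 2 or 3 of MEFs + DMSO, 15, 5 and 4 genes were called higher and 1 lower each time. A fit to the 6 arrays alone called 4 genes higher and 1 lower. Replicate 2 of MEFs + ALL + nilotinib stood apart on the second principal component, which held 18.9% of the variance, and had the lowest array weight of the 10, 0.277. The genes Penk, Cxcl5, Rarres1, AW551984 and Chac1 passed in all 6 fits that left out 1 array, and 105 of the 173 called genes passed in none of them. Clca3a2, Folh1 and Ppbp, with differences over 1, passed in 1 of these fits each, and Serping1 in 2. Over all alternative fits the log2 differences of the 96 genes named by rule lay between 0.81 and 1.18 times those given here. That range was largely fixed in advance. The genes were chosen from these arrays as called and without overlap, and several of the fits keep the same group means. Errors after ± are standard errors of the fit.

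**Figure D1:**
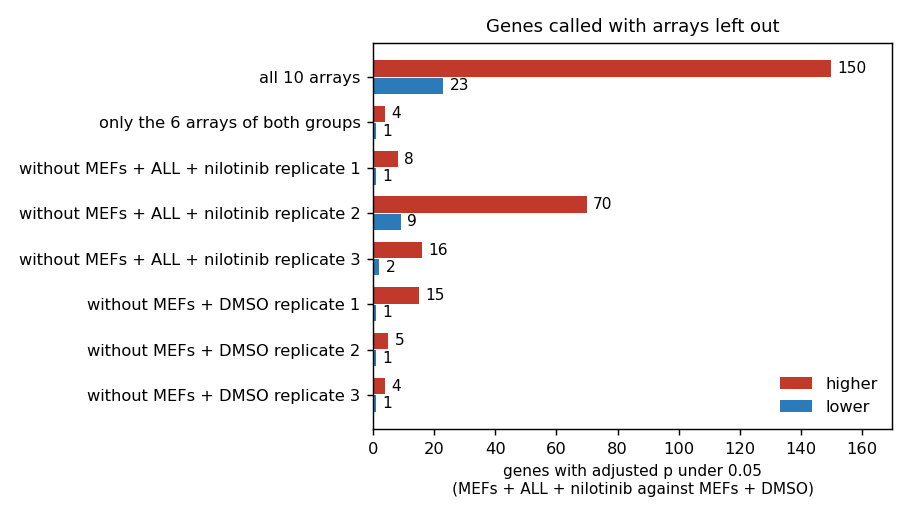
Number of genes called higher (red) and lower (blue) in MEFs + ALL + nilotinib against MEFs + DMSO with all 10 arrays, with only the 6 arrays of both groups, and with each of those arrays left out. The count fell from 150 and 23 to between 4 and 70 higher and between 1 and 9 lower, and was least reduced without replicate 2 of MEFs + ALL + nilotinib.

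Among the chemokines and NF-kB targets, 2 genes of each list rose. Cxcl5, a chemokine that attracts neutrophils, measured 6.32, 6.50 and 6.34 in MEFs + ALL + nilotinib and 5.44, 5.49 and 5.40 in MEFs + DMSO. These levels are low, near those of the preB markers Cd79a and Vpreb1 in MEFs + DMSO (5.40 and 6.40). The groups lay well apart and the difference was 0.94 ± 0.08, adjusted p = 0.00576, a ratio of mean signals of 1.93. The gene stayed at 5.42, 5.51 and 5.33 in MEFs + nilotinib. Of 15 CXC chemokines 2 passed as higher, Cxcl5 and Ppbp (1.05 ± 0.15), against 0.732% higher and 0.11% lower over all genes with 1 probeset each, and the median of the list was 0.05. Cxcl15 differed by 0.99 ± 0.19 without passing (adjusted p = 0.0702). Of 18 CC chemokines 0 passed, 5 had an unadjusted p under 0.05 with a higher level (10.9% of all genes), and the largest difference was that of Ccl12 (0.54 ± 0.14, adjusted p = 0.141). The interleukin gene Il6 differed by 1.01 ± 0.19 and did not pass (adjusted p = 0.0663).

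Il1rn, the antagonist that blocks the interleukin-1 receptor, measured 9.44, 9.25 and 9.38 against 8.77, 8.77 and 8.62 in MEFs + DMSO. It rose by 0.64 ± 0.07, adjusted p = 0.0182, with every co-culture array above every DMSO array. Tnfaip2, a gene induced by tumor necrosis factor, measured 10.58, 10.63 and 10.47 against 9.99, 9.85 and 9.84 (0.66 ± 0.07, adjusted p = 0.0136). These were the called members of the NF-kB target list, in which 2 of 26 passed as higher and 0 as lower, 21 had a difference above 0 and the median was 0.14. At an unadjusted p under 0.05, 9 were higher and 0 lower, by limma, against 10.9% and 6.96% of all genes. Csf1, the growth factor of macrophages, measured 11.55, 11.64 and 11.54 against 11.22, 11.23 and 11.20. It was the called member of 15 hematopoietic growth factors (0.36 ± 0.06, adjusted p = 0.0391), and its level exceeded that of every MEFs + nilotinib array, which measured 11.32, 11.36 and 11.30. Osmr, the receptor of oncostatin M, rose by 0.51 ± 0.09, adjusted p = 0.0488 as the called member of 12 genes of the interleukin-6 family.

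Promoters of Il1rn and Csf1, genes of secreted proteins that rose, are shown because the motif GGNNTTTCC, a loose form of the NF-kB site, stands in both. Il1rn belongs to the NF-kB target list and Csf1 does not. The sequences are the 250 bases before a RefSeq transcript start on GRCm38.p6 (Il1rn chr2:24345121-24345370, plus strand, Csf1 chr3:107760470-107760719, minus strand), written 5′ to 3′ on the gene's strand with the match in capitals. The match begins 50 bases before the start in Il1rn and 154 bases before it in Csf1, where it is on the opposite strand.
Il1rn: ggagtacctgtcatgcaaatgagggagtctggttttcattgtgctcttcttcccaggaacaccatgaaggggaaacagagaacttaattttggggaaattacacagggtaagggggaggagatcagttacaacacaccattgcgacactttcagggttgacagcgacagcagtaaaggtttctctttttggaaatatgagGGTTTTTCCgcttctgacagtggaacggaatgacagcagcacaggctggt
Csf1: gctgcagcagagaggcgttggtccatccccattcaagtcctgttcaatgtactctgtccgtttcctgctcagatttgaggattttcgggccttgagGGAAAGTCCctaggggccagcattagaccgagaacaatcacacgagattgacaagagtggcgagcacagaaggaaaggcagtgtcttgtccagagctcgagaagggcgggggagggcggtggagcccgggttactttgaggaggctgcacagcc
Searched on both strands, the motif stood in the promoters of 9 of 108 genes called higher that have one in the table, or 8.33% (Tnfaip2, Cp, Dkk2, Clca3a2 and Plac8 among them), 0 of 16 called lower, and 5.62% of all 27025 genes. The letters ACGTG of the hypoxia response element, searched in the same way, stood in 24 of the 108 called higher (22.2%), 3 of the 16 called lower and 18.5% of all genes. A match of letters is not a measured binding site.

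Ceruloplasmin, both kininogens and the peptidase inhibitor Pi15 rose. Cp, ceruloplasmin, the copper ferroxidase of plasma, measured 8.77, 8.39 and 8.82 against 7.98, 7.76 and 7.70 in MEFs + DMSO (0.84 ± 0.13, adjusted p = 0.0371). Replicate 2 was the lowest of the co-culture arrays and still above every DMSO array. Kng2, a kininogen and so a precursor of the kinin peptides, measured 8.67, 8.21 and 8.63 against 7.71, 7.74 and 7.66 (0.80 ± 0.12, adjusted p = 0.0332). Its close copy Kng1 rose by 0.71 ± 0.09, and probes of the pair may share signal. Pi15, a secreted peptidase inhibitor, measured 9.12, 9.14 and 9.25 against 8.55, 8.41 and 8.17 (0.79 ± 0.10, adjusted p = 0.0266). In the complement list of 26 genes 1 passed, the C1 inhibitor Serping1 (1.13, limma adjusted p = 0.0192), with 18 differences above 0 and a median of 0.09. At an unadjusted p under 0.05, 11 were higher and 1 lower, by limma, against 10.9% and 6.96% of all genes. The list also holds Olfr48 (-0.09), which is not a complement gene. The complement proteases C1ra (0.56) and C1s1 (0.44) did not pass, with adjusted p of 0.0643 and 0.144. Of 47 serpins 2 passed as higher, Serping1 and Serpinb9b (0.51 ± 0.08, adjusted p = 0.0389), one of a cluster of near-identical genes and so uncertain in its identity.

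Signals of nerves and of lipid mediators also stood among the rises. Penk, the precursor of the enkephalin peptides, measured 10.20, 10.01 and 10.10 against 9.05, 8.98 and 8.94 in MEFs + DMSO, and 9.15, 8.99 and 9.02 in MEFs + nilotinib. Its standard error was 0.07 for a difference of 1.12, and the difference also passed against MEFs + nilotinib (1.05, limma adjusted p = 0.00323). Vip, the vasoactive intestinal peptide, measured 7.37, 7.41 and 7.35 against 6.97, 6.90 and 6.76 (0.50 ± 0.07, adjusted p = 0.0316), while MEFs + nilotinib measured 7.10, 7.18 and 7.24, between the groups. These were the called members of 28 neuropeptides and receptors, whose median was -0.06. Ptger4, a receptor of prostaglandin E2, measured 8.18, 8.06 and 8.12 against 7.50, 7.46 and 7.42 (0.66 ± 0.07, adjusted p = 0.0106). It was the called member of 27 prostaglandin genes, of which 21 had a difference above 0 and the median was 0.11. Dio3, the enzyme that inactivates thyroid hormone, measured 8.22, 7.94 and 8.11 against 7.24, 7.33 and 7.40 (0.76 ± 0.09, adjusted p = 0.021).

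Fibroblast growth factors that act on epithelia rose as a pair. Fgf10 measured 8.37, 8.23 and 8.33 against 7.65, 7.56 and 7.41 in MEFs + DMSO (0.77 ± 0.09, adjusted p = 0.0182). Fgf7, keratinocyte growth factor, measured 11.98, 11.86 and 11.95 against 11.48, 11.43 and 11.27 (0.54 ± 0.08, adjusted p = 0.0371). Both separated fully from the DMSO arrays. The rest of the list did not move one way, with 2 of 26 genes higher, 0 lower and a median of 0.02. Fgf9 (-0.41, adjusted p = 0.0627) and Fgf18 (-0.33, adjusted p = 0.0873) had negative differences that did not pass. Vegfd, a factor for lymphatic vessels, measured 11.48, 11.40 and 11.38 against 11.03, 10.86 and 10.93 and was the called member of 39 EGF, PDGF, VEGF and HGF family genes (0.48 ± 0.07, adjusted p = 0.0317).

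In the insulin-like growth factor list a binding protein and a protease of such proteins rose. Igfbp4, which holds these factors in an inactive complex, measured 11.51, 11.55 and 11.41 against 10.86, 10.77 and 10.73 (0.70 ± 0.07, adjusted p = 0.0106). Pappa2, a protease that cleaves such binding proteins, measured 8.17, 8.25 and 8.25 against 7.75, 7.84 and 7.76 (0.44 ± 0.06, adjusted p = 0.0275), and its 3 probesets differed by 0.31 to 0.48. Of 16 genes of the list 2 passed as higher and 0 as lower, with a median of 0.05. Stc1 (0.59 ± 0.10) and Igfbp3 (0.55 ± 0.11) had positive differences that did not pass, with adjusted p of 0.0504 and 0.0756.

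Secreted antagonists of BMP and Wnt factors were among the called genes. Grem1, gremlin 1, which binds BMPs, measured 12.41, 12.40 and 12.36 against 11.86, 11.91 and 11.87. The co-culture arrays lay close together, and the rise was 0.51 ± 0.05, adjusted p = 0.0136. Chrdl1, another BMP binding protein, measured 7.36, 7.46 and 7.62 against 6.96, 6.94 and 6.83 (0.57 ± 0.09, adjusted p = 0.0393). Gdf10, a ligand of the TGF-β superfamily, rose by 0.52 ± 0.08, adjusted p = 0.0374. Those were the called members of 42 genes of TGF-β and BMP signalling, with 27 differences above 0 and a median of 0.04. Lrrc32, the protein that anchors latent TGF-β at the cell surface, measured 11.21, 11.42 and 11.26 against 10.59, 10.53 and 10.49 (0.76 ± 0.08, adjusted p = 0.0136), and Itgb8, an integrin chain that activates latent TGF-β, rose by 0.47 ± 0.07, adjusted p = 0.0344.

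Of 44 Wnt genes, 3 passed as higher and 0 as lower, and all of the called ones are secreted regulators. Sfrp1, which binds Wnt ligands, measured 11.37, 11.30 and 11.33 against 11.02, 10.92 and 10.83 (0.41 ± 0.06, adjusted p = 0.0391). Sfrp4, of the same family, measured 10.86, 10.86 and 10.75 against 10.30, 10.28 and 10.19 (0.57 ± 0.09, adjusted p = 0.0349), with the MEFs + nilotinib arrays between at 10.34, 10.64 and 10.50. Dkk2, a ligand of the Wnt coreceptor, measured 8.89, 8.94 and 8.98 against 8.45, 8.38 and 8.39 (0.53 ± 0.06, adjusted p = 0.0136), and MEFs + nilotinib measured 8.45, 8.46 and 8.38. The median of the whole list was -0.02, with 21 differences above 0. In the Notch list of 26 genes the ligand Jag1 fell, from 10.58, 10.55 and 10.50 to 10.10, 10.09 and 10.13 (-0.44 ± 0.05, adjusted p = 0.0205), and no other member passed.

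**Figure D2:**
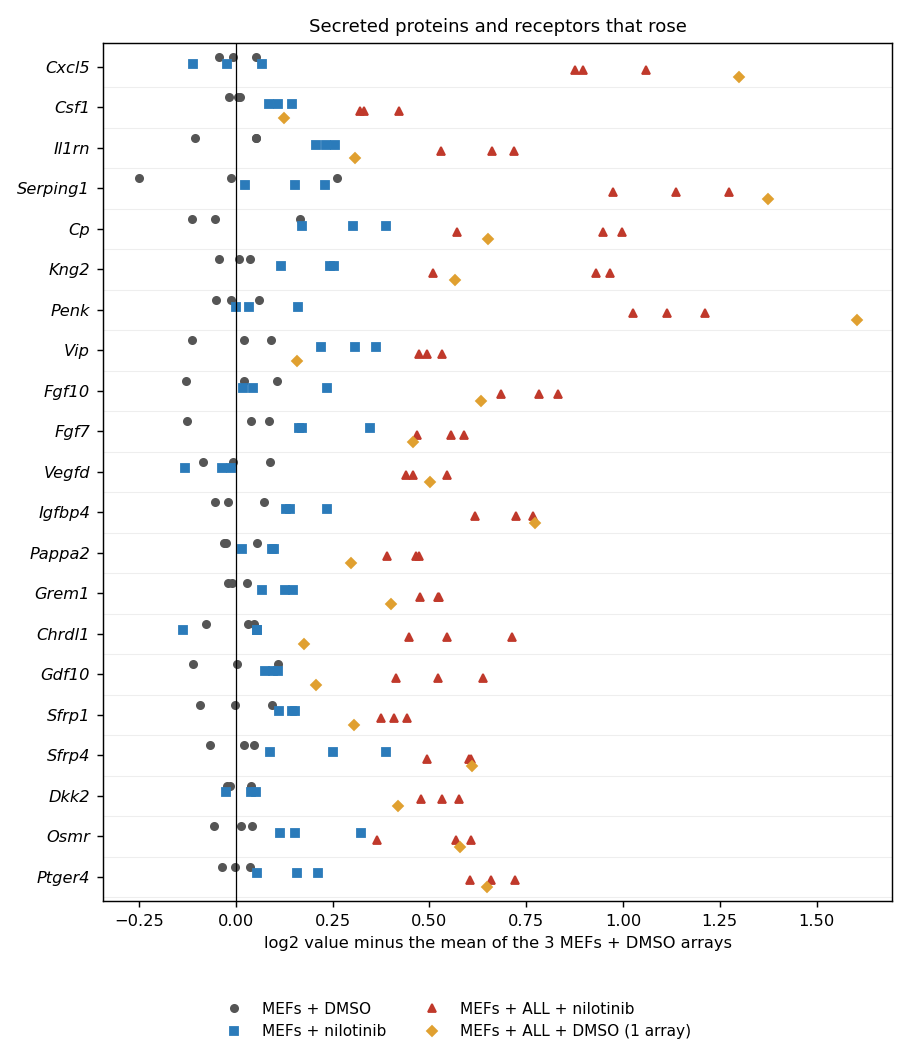
Log2 value of each array minus the mean of the 3 MEFs + DMSO arrays for 21 genes of secreted proteins and receptors, by group. Within each gene every MEFs + ALL + nilotinib array (triangles) lies to the right of every MEFs + DMSO array (circles), while MEFs + nilotinib (squares) overlaps the DMSO arrays for Cxcl5, Penk and Dkk2 and lies between for Il1rn and Vip.

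Matrix genes moved in both directions. Among the small leucine-rich proteoglycans, Prelp measured 11.27, 11.14 and 11.27 against 10.68, 10.60 and 10.62 (0.59 ± 0.06, adjusted p = 0.0136) and Fmod, fibromodulin, 11.14, 11.24 and 11.25 against 10.78, 10.85 and 10.85 (0.38 ± 0.06, adjusted p = 0.0439). Gpc3, a cell surface heparan sulfate proteoglycan, rose by 0.56 ± 0.07, adjusted p = 0.0231. In that list of 34 proteoglycan and hyaluronan genes 3 passed as higher and 0 as lower, with a median of 0.04, and Lum differed by 0.71 ± 0.12 without passing (adjusted p = 0.0515). Of 44 collagens 2 passed as higher, Col6a2 (0.53 ± 0.09, adjusted p = 0.0411) and Col14a1 (0.38 ± 0.06, adjusted p = 0.0434), and 1 as lower. Without replicate 2 of MEFs + ALL + nilotinib, the highest of its group at 10.45, Col6a2 differed by 0.44. Col10a1, a collagen of hypertrophic cartilage, was the one that fell, from 10.38, 10.33 and 10.32 to 9.62, 9.81 and 9.78 (-0.61 ± 0.08, adjusted p = 0.0275). The median of all 44 was -0.11, with 12 differences above 0 and 32 below. The glycoproteins Egfl6 (0.82 ± 0.10, adjusted p = 0.0188) and Npnt, nephronectin (0.41 ± 0.06, adjusted p = 0.0378), rose.

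Elastin and hemicentin 1 fell. Eln, elastin, measured 9.60, 9.75 and 9.53 against 10.32, 10.47 and 10.47 in MEFs + DMSO (-0.79 ± 0.11, adjusted p = 0.0292), and it was the called member of 20 elastic fibre genes, whose median was 0.00. Hmcn1, hemicentin 1, a very long extracellular protein, is covered by 77 probesets. All 77 had a difference below 0, from -0.73 to -0.10 with a median of -0.43, 68 showed no overlap between the groups, 69 had an unadjusted p under 0.05 and 9 passed the adjusted test. The probesets read the same RNA and are not replicates. Taken per array, their median lay 0.46, 0.41 and 0.36 below the DMSO mean in the co-culture arrays, 0.01, 0.11 and 0.33 below it in MEFs + nilotinib and 0.61 below it on the MEFs + ALL + DMSO array. Replicate 3 of MEFs + nilotinib thus came near the co-culture arrays, and the brightest called probeset differed by -0.47 ± 0.08 from DMSO and by -0.34 from MEFs + nilotinib (limma adjusted p = 0.194).

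**Figure D3:**
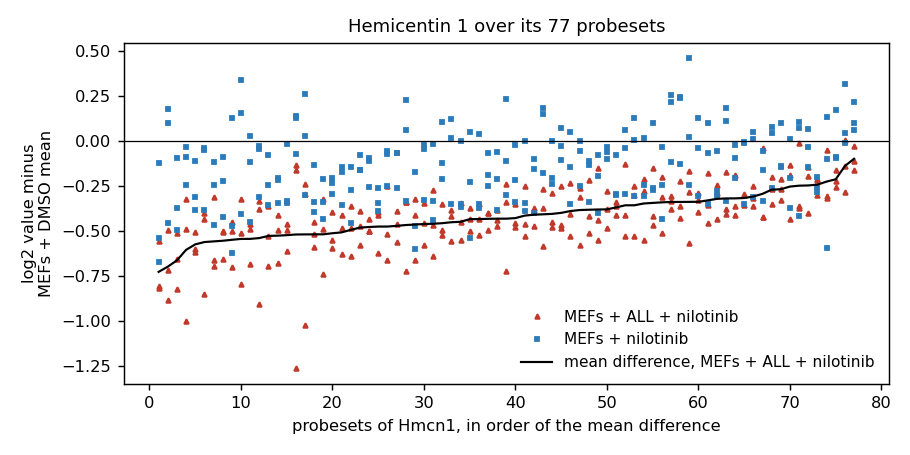
The 77 probesets of Hmcn1 in order of their mean difference (black line), with each MEFs + ALL + nilotinib array (triangles) and each MEFs + nilotinib array (squares) as log2 value minus the MEFs + DMSO mean. The mean difference is below 0 for all 77 probesets, from -0.73 to -0.10.

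Secreted proteases were split. Adamts12, a metalloprotease of the matrix, fell from 10.79, 10.74 and 10.71 to 10.11, 10.28 and 10.25 (-0.54 ± 0.09, adjusted p = 0.0454), and Prss35, a serine protease-like protein, from 9.81, 9.77 and 9.71 to 9.18, 9.06 and 9.23 (-0.61 ± 0.07, adjusted p = 0.021). Mmp19 rose by 0.42 ± 0.07, adjusted p = 0.0391, and Plau, urokinase, which turns plasminogen into plasmin, measured 9.77, 9.85 and 9.74 against 9.24, 9.25 and 9.15 (0.57 ± 0.06, adjusted p = 0.0136). Of 82 matrix proteases and inhibitors 1 passed in each direction. Cpxm2, of the metallocarboxypeptidase family, measured 8.78, 8.88 and 8.71 against 8.04, 8.13 and 7.99 (0.74 ± 0.07, adjusted p = 0.00951) and passed in 5 of the 6 fits that left out an array. Chodl, a membrane lectin, fell from 8.40, 8.40 and 8.34 to 7.57, 7.40 and 7.72 (-0.82 ± 0.10, adjusted p = 0.0192).

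In the glycolysis list 3 genes rose. Pfkl, the liver form of phosphofructokinase, measured 10.73, 10.66 and 10.46 against 9.97, 9.91 and 9.97 (0.67 ± 0.08, adjusted p = 0.0188), and MEFs + nilotinib measured 9.99, 9.95 and 10.05. The lactate carriers Slc16a3 (0.92 ± 0.13, adjusted p = 0.0317) and Slc16a1 (0.37 ± 0.05, adjusted p = 0.0337) rose as well, and of the 27 glycolysis genes 3 passed as higher and 0 as lower. In this list 25 differences were above 0, 15 had an unadjusted p under 0.05 with a higher level (10.9% of all genes), and the median was 0.24. The list also holds Pigq (0.06), which is not a glycolysis gene. Pdk1, a kinase that inhibits pyruvate dehydrogenase, differed by 0.62 ± 0.15 (adjusted p = 0.11). Ak4, a mitochondrial adenylate kinase, measured 7.94, 7.83 and 7.62 against 7.15, 7.08 and 6.90 (0.75 ± 0.10, adjusted p = 0.0275) in the called one of its 2 probesets, and the other differed by 0.12. Of 29 hypoxia response genes 0 passed (13 had an unadjusted p under 0.05 with a higher level and 1 with a lower, against 10.9% and 6.96% of all genes), with a median of 0.13. Of 75 respiratory chain genes 0 passed and the median was 0.07. At an unadjusted p under 0.05, 20 of the 75 were higher and 0 lower, against the same shares of all genes.

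Enzymes of lipids, retinoids and foreign compounds moved in both directions. Rarres1, a membrane protein induced by retinoic acid, measured 9.08, 9.00 and 8.97 against 8.14, 8.21 and 8.22. The co-culture arrays lay close together, the difference was 0.83 ± 0.06, adjusted p = 0.00524, and the gene also passed against MEFs + nilotinib (0.69, limma adjusted p = 0.00599). Fmo2, a flavin monooxygenase, measured 9.60, 9.56 and 9.32 against 8.75, 8.82 and 8.69 (0.74 ± 0.09, adjusted p = 0.0188). Adh1, an alcohol and retinol dehydrogenase, rose by 0.38 ± 0.06, adjusted p = 0.0401, and Tiparp, a target of the aryl hydrocarbon receptor, by 0.54 ± 0.09, adjusted p = 0.0474. Sult1e1, the estrogen sulfotransferase, fell from 6.46, 6.40 and 6.18 to 5.45, 5.08 and 5.66 (-0.95 ± 0.15, adjusted p = 0.0393), and the retinol dehydrogenase Rdh10 from 10.68, 10.65 and 10.63 to 10.28, 10.26 and 10.32 (-0.37 ± 0.06, adjusted p = 0.0458). The Sult1e1 levels are low, near those of the preB markers Cd79a and Vpreb1 in MEFs + DMSO (5.40 and 6.40). Of the 34 genes on the retinoid, steroid and xenobiotic list 4 passed as higher and 1 as lower, with 24 differences above 0 and a median of 0.12. Scd1, a fatty acid desaturase, rose by 0.44 ± 0.06, adjusted p = 0.0316 as the called member of 29 lipid synthesis genes. Sod3, the extracellular superoxide dismutase, rose by 0.51 ± 0.08, adjusted p = 0.0411 as the called member of 32 NRF2 targets and metallothioneins. Of 23 cholesterol synthesis genes 0 passed (7 had an unadjusted p under 0.05 with a higher level, against 10.9% of all genes), with a median of 0.08.

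In the ATF4 list 3 genes fell. Chac1, which degrades glutathione, measured 8.01, 7.94 and 7.88 against 8.80, 8.81 and 8.90 in MEFs + DMSO and 8.76, 8.64 and 8.72 in MEFs + nilotinib. The co-culture arrays lay below all others but the MEFs + ALL + DMSO array, at 7.78, and the difference was -0.89 ± 0.06, adjusted p = 0.00524. Trib3, a pseudokinase that restrains ATF4, measured 9.04, 9.00 and 8.71 against 9.61, 9.54 and 9.64 (-0.68 ± 0.10, adjusted p = 0.0332). Cth, the enzyme that makes cysteine from cystathionine, measured 8.57, 8.51 and 8.44 against 9.02, 8.94 and 9.05 (-0.50 ± 0.08, adjusted p = 0.0425). In the list of 43 ATF4 and amino acid response genes 0 passed as higher and 3 as lower, 36 differences were below 0 and the median was -0.11. None had an unadjusted p under 0.05 with a higher level and 17 had one with a lower level, by limma, against 10.9% and 6.96% of all genes. Sesn2 (-0.57 ± 0.15, adjusted p = 0.133) and the threonine tRNA ligase gene Tars (-0.56 ± 0.13, adjusted p = 0.112) did not pass. Of 24 endoplasmic reticulum folding genes 0 passed (3 had an unadjusted p under 0.05 with a lower level, against 6.96% of all genes), with a median of -0.05. Of 27 p53 targets 0 passed (10 had an unadjusted p under 0.05 with a lower level and 0 with a higher, against 6.96% and 10.9% of all genes), and the median was -0.14.

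The Chac1 promoter is shown because this gene had the firmest fall and the ATF4 response element TGATGNAA stands in it. It is given as the 250 bases before the RefSeq start on GRCm38.p6 (chr2:119350992-119351241, plus strand), 5′ to 3′ on the gene's strand. The match, in capitals, is on the opposite strand and begins 193 bases before the start.
Chac1: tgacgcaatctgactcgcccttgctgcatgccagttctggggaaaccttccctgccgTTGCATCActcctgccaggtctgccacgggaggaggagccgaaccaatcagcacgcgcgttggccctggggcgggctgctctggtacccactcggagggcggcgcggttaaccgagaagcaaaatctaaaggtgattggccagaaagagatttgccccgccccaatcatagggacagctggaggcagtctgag
On both strands the element stood in the promoters of 2 of 16 genes called lower (Chac1 and Sult1e1), 1 of 108 called higher (Tubb3), and 3.91% of all 27025 genes. In the Trib3 promoter these letters did not stand within the 250 bases.

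In the irradiated MEFs, 2 genes of DNA replication and G1/S rose. Ccne1, cyclin E1, measured 9.57, 9.52 and 9.56 against 9.07, 9.03 and 9.07 and 9.21, 9.35 and 9.31 in MEFs + nilotinib (0.50 ± 0.06, adjusted p = 0.0192). Mcm2, a helicase subunit that licenses replication origins, measured 8.65, 8.71 and 8.65 against 8.25, 8.23 and 8.25 (0.42 ± 0.06, adjusted p = 0.0337). No gene passed as lower among the 62 of that list, of which 57 had a difference above 0 and the median was 0.19. At an unadjusted p under 0.05, 30 of the 62 were higher and 1 lower, against 10.9% and 6.96% of all genes. Of 70 mitosis genes 0 passed (13 had an unadjusted p under 0.05 with a higher level, against 10.9% of all genes), with a median of 0.10. On the MEFs + ALL + DMSO array, where leukocyte markers were high, the medians of these lists were 1.21 and 1.97 above MEFs + DMSO, and Mcm2 stood at 10.38. In MEFs + nilotinib, without ALL cells, the medians were 0.07 and 0.07. Whether ALL cell RNA had a part in these differences was not tested.

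In the immediate early gene list 1 gene rose and 1 fell. Nr4a1, an orphan nuclear receptor induced by many stimuli, measured 11.12, 10.96 and 10.76 against 10.13, 10.27 and 10.14 (0.77 ± 0.09, adjusted p = 0.021). Among the 28 genes of the list it alone passed as higher, and Dusp2, a phosphatase of MAP kinases, alone as lower, from 6.76, 6.93 and 6.95 to 6.36, 6.47 and 6.47 (-0.44 ± 0.07, adjusted p = 0.0411). Egr1 (-0.41) and Egr2 (-0.45) did not pass, both with an adjusted p of 0.113. Cebpd, a factor of acute phase and fat cell genes, measured 7.57, 7.42 and 7.37 against 6.85, 6.73 and 6.44 (0.78 ± 0.11, adjusted p = 0.0292). Nr1d1, the clock repressor REV-ERBα, measured 10.12, 10.11 and 10.11 against 10.62, 10.61 and 10.56 (-0.48 ± 0.06, adjusted p = 0.0266), the called member of 16 clock genes. Dnmt3a, a DNA methyltransferase, fell from 8.85, 8.84 and 8.85 to 8.30, 8.33 and 8.41 (-0.50 ± 0.06, adjusted p = 0.021), with MEFs + nilotinib at 8.66, 8.53 and 8.64.

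Genes of the cytoskeleton and the cell surface completed the set. Thy1, a fibroblast surface protein, measured 12.12, 12.45 and 12.07 against 11.64, 11.62 and 11.56 (0.60 ± 0.10, adjusted p = 0.0416), and the calcium-binding protein genes S100a4 (0.93 ± 0.09) and S100a1 (0.41 ± 0.06) rose. Stmn2, which takes microtubules apart, measured 9.55, 9.45 and 9.26 against 8.70, 8.81 and 8.55 (0.73 ± 0.11, adjusted p = 0.0391), and the tubulin Tubb3 rose by 0.35 ± 0.06, so that 2 of 12 neural markers passed, while the median of that list was -0.03. Des, desmin, was the called gene of both the 26 contractile and the 18 skeletal muscle genes (0.90 ± 0.10), whose medians were 0.14 and -0.03. The small heat shock protein Hspb6 (0.45 ± 0.08), the cadherin Cdh13 (0.53 ± 0.08) and the ephrin receptor Epha1 (0.42 ± 0.07) rose. Piezo2, a channel opened by stretch, fell from 11.98, 11.97 and 12.03 to 11.51, 11.52 and 11.66 (-0.43 ± 0.06, adjusted p = 0.0316), and its 3 probesets differed by -0.43 to -0.33. Csrp2, a muscle LIM protein, fell by 0.36, Arhgef26 by 0.44, and Nrep by 0.52.

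Carriers among the rises were the urea transporter Slc14a1, 8.23, 8.18 and 8.22 against 7.70, 7.68 and 7.63 (0.54 ± 0.07, adjusted p = 0.0275), the choline transporter Slc5a7 (0.48 ± 0.07, adjusted p = 0.0349) and Slc16a12 (0.47 ± 0.08, adjusted p = 0.0458). Of 331 solute carriers 5 passed as higher and 0 as lower, with 201 differences below 0 and a median of -0.04. A few called genes are dim or belong to families in which probes can share signal. Dnah3 (4.68, 4.65 and 4.72 against 5.04, 5.00 and 5.15) and Defb7 (3.71, 3.78 and 3.80 against 4.14, 4.19 and 4.15) lay at the low end of the scale, and 1 of the 33 Dnah3 probesets passed while 11 differed in the other direction. The olfactory receptor genes Olfr1260 (0.75 ± 0.12) and Olfr5 (-0.41 ± 0.06) and the unannotated Gm10142 (-0.46 ± 0.07) also passed, and their identity is uncertain.

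Over the 65 gene lists, 32 held called genes that were all higher, 5 held called genes that were all lower, 5 held both and 23 held none. The lists with the highest medians were glycolysis (0.24), DNA replication and G1/S (0.19) and the interleukin-6 family (0.16), and the lowest were p53 targets (-0.14), adipocyte markers (-0.12) and ATF4 targets (-0.11). All of these medians are small beside the called differences. Of 35 interferon response genes, 39 proteasome genes and 9 kinases that nilotinib inhibits, 0 passed, with medians of 0.12, 0.03 and 0.02, and with 8, 6 and 2 genes at an unadjusted p under 0.05 and a higher level, and 0, 1 and 0 at a lower level, by limma. The shares over all genes were 10.9% higher and 6.96% lower.

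**Figure D4:**
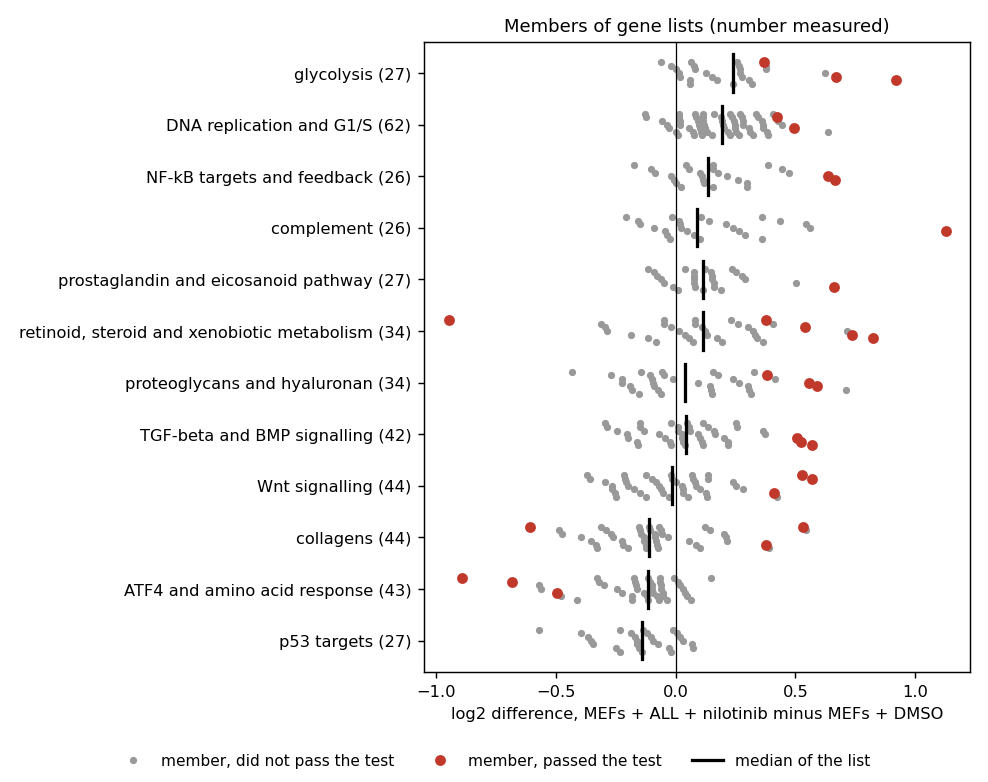
Log2 difference between MEFs + ALL + nilotinib and MEFs + DMSO for each measured member of 12 gene lists. Grey points did not pass the test, red points passed, and black bars mark list medians, which run from 0.24 for glycolysis to -0.14 for p53 targets.

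The other arrays give the drug alone and the ALL cells with their filter but without drug. They share samples with the comparison above, so values are set side by side. Against MEFs + nilotinib, 66 of 35557 probesets passed, or 0.186%. Of the 150 genes called higher against DMSO, 38 also passed in the same direction against MEFs + nilotinib, and of the 23 called lower 7 did. The median of the 150 was 0.52 against DMSO and 0.42 against MEFs + nilotinib, while MEFs + nilotinib stood 0.14 and the MEFs + ALL + DMSO array 0.48 above DMSO. For the 23 the medians were -0.50, -0.33 and -0.13, and -0.82 on the MEFs + ALL + DMSO array. Slc16a3 differed by -0.02 between MEFs + nilotinib and MEFs + DMSO, and by 0.94 between the co-culture and MEFs + nilotinib (limma adjusted p = 0.0444). For Prelp these differences were 0.02 and 0.57 (limma adjusted p = 0.0202). Defb7 lay 0.41 lower in MEFs + nilotinib too, and its co-culture difference from that group was 0.01.

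Against the single MEFs + ALL + DMSO array, 1543 probesets passed, or 4.34%, and 3.95% passed the test of whether ALL cells acted differently under nilotinib than under DMSO. Of the 150 higher genes 13 differed between the MEFs + ALL + nilotinib arrays and that array, and 11 of those lay farther from DMSO on the latter. Of the 23 lower genes 7 differed, and 5 lay farther from DMSO there. That array has no replicate, its spread is taken from the other groups, and it carried leukocyte transcripts. For the genes of the firmest calls it lay beyond the co-culture arrays with drug, at 10.59 for Penk, 6.74 for Cxcl5 and 7.78 for Chac1, and at 8.93 for Rarres1 just below them. The difference between the co-cultures passed for Penk (-0.49, limma adjusted p = 0.0385) and not for Cxcl5 (-0.35, 0.13), Chac1 (0.17, 0.383) or Rarres1 (0.09, 0.629).

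**Figure D5:**
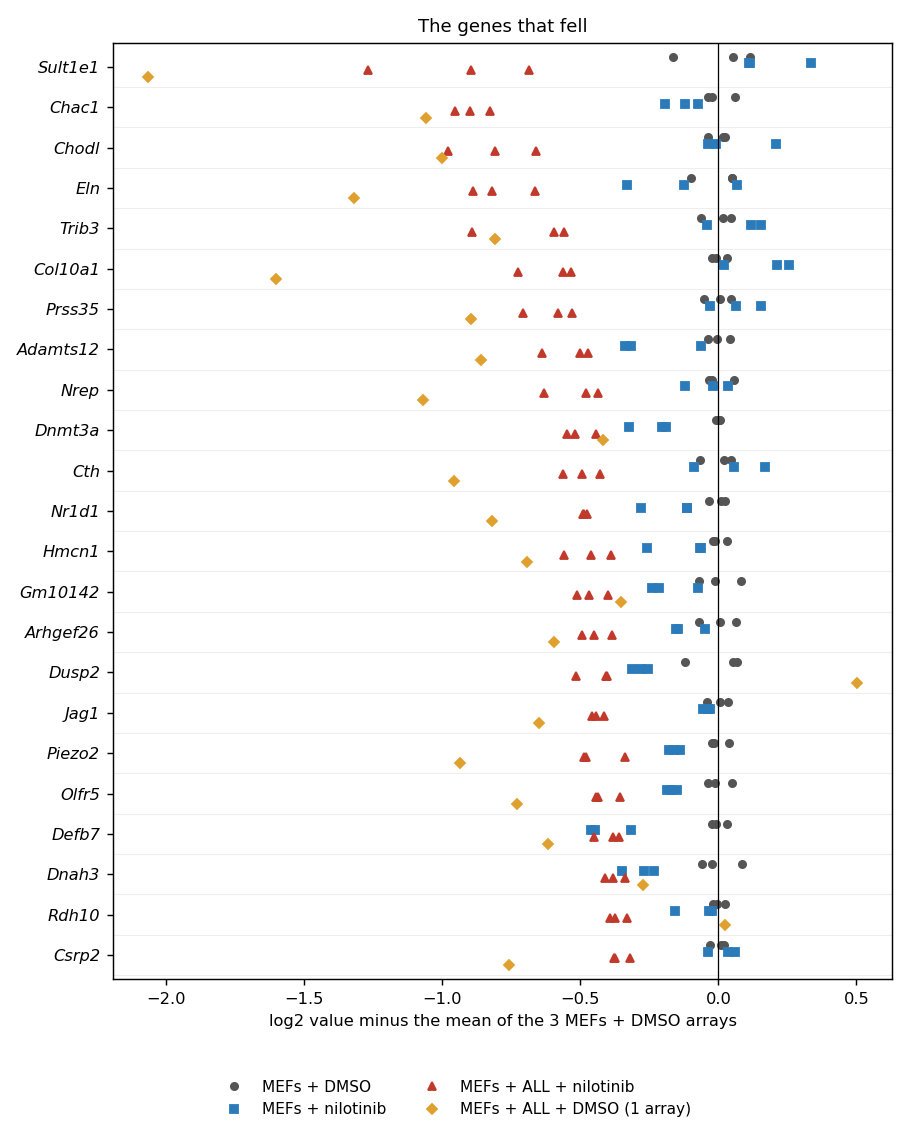
Log2 value of each array minus the mean of the 3 MEFs + DMSO arrays for the 23 genes called lower, by group. Within each gene every MEFs + ALL + nilotinib array (triangles) lies to the left of every MEFs + DMSO array (circles), and the single MEFs + ALL + DMSO array (diamond) lies farther left for Sult1e1, Col10a1 and Eln and to the right for Dusp2.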

How the data were processed

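RNA of irradiated MEFs was hybridized by the authors to Affymetrix Mouse Gene 1.0 ST arrays with 1 array per sample. The deposited table holds log2 expression values. The authors describe array values as normalized by RMA, and per the labels Partek was used, with settings not given in the sources used here. Scanner intensities were not used here, so probesets above background could not be marked, and precision is limited by 3 arrays a group. Array medians ran from 6.94 to 7.01.

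Probesets were named from the platform annotation, of which 21789 had 1 symbol, 1621 several and 12147 none. Gene IDs of 21698 matched RefSeq, assembly GRCm38.p6, with 0 symbols changed. All 10 arrays were fitted with 4 group means in limma 3.58.1 (R 4.3.3), tests were two-sided and adjusted by Benjamini-Hochberg over 35557 probesets at 0.05. In simulated data of 35557 probesets, 30% of 200 changes of 0.5, 84.5% of changes of 1 and 97% of changes of 2 on the log2 scale were recovered for this comparison. In lists a gene was its probeset with the highest mean, and names were also matched through synonyms, which can bring in other genes. Genes were named where they were called without overlap of the arrays, as the 30 largest rises, the 25 largest falls (23 existed) and each called list member, plus up to 4 members per list by size. Not every gene named by this rule is described in the text. The members and lists were chosen with earlier results of these data known. The alternatives were 6 or 9 arrays, trended and weighted fits, centring, quantile normalization, a filter at a mean of 5, other adjustment, a replicate block and leaving out each array. Promoters and motifs were read from RefSeq sequence. Of the called genes, 1 that met the naming rule is not reported here.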

Additional observations from a re-analysis of the deposited data

Results flagged for a closer look

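For 12 of the 96 genes named by rule the effect of ALL cells differed between nilotinib and DMSO, by the interaction term of the limma fit with Benjamini-Hochberg adjustment over all probesets. The effect under DMSO rests on 1 array, which carried leukocyte transcripts, and the part of those transcripts in the differences was not tested. The effect on Plac8, a gene also expressed in leukocytes, was 0.64 under nilotinib and 3.01 under DMSO (difference -2.37, adjusted p = 0.000479). The replication gene Mcm2 gave 0.23 under nilotinib and 2.13 under DMSO (difference -1.90, adjusted p = 2.7e-05), and the lactate carrier Slc16a1 0.23 under nilotinib and 1.81 under DMSO (difference -1.58, adjusted p = 3.15e-05). For Slc14a1 the effect was 0.63 under nilotinib and 1.31 under DMSO (difference -0.68, adjusted p = 0.0194), and for Scd1 0.29 under nilotinib and 0.88 under DMSO (difference -0.58, adjusted p = 0.0211). Dusp2 had opposite signs, -0.16 under nilotinib and 0.50 under DMSO (difference -0.66, adjusted p = 0.0204).

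For 6 genes the level was lower on the MEFs + ALL + DMSO array and the fall was smaller, or there was none, under nilotinib. For Col10a1 the effect was -0.77 under nilotinib and -1.60 under DMSO (difference 0.83, adjusted p = 0.0136). For Nrep it was -0.48 under nilotinib and -1.07 under DMSO (difference 0.59, adjusted p = 0.0429), for Piezo2 -0.27 under nilotinib and -0.94 under DMSO (difference 0.66, adjusted p = 0.0101) and for Nr1d1 -0.32 under nilotinib and -0.82 under DMSO (difference 0.50, adjusted p = 0.0448). The dim genes Olfr5 and Defb7 gave -0.24 under nilotinib and -0.73 under DMSO (difference 0.49, adjusted p = 0.031) and 0.01 under nilotinib and -0.62 under DMSO (difference 0.63, adjusted p = 0.0142).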

How the results depend on the processing

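With 3 arrays per group, calls moved with the processing. All 96 named genes kept their sign in each of the 15 alternative fits, which the naming rule largely fixed in advance. Genes were named only where the arrays of the groups did not overlap, so leaving out an array could not change a sign. Several other fits kept the same group means. Against 150 genes higher and 23 lower, trended and robust variances gave 307 higher and 52 lower, array weights 619 higher and 268 lower, centring on array medians 183 higher and 23 lower, quantile normalization 143 higher and 32 lower, leaving out probesets of mean under 5 186 higher and 31 lower, and adjustment over probesets with 1 symbol 202 higher and 37 lower. Without the MEFs + ALL + DMSO array the counts were 150 higher and 23 lower. The fit to the 6 arrays alone gave 4 higher and 1 lower, and a ratio of mean signals over 2 held for 9 and 0 genes. Leaving out 1 array gave 4 to 70 higher and 1 to 9 lower. Whether the arrays' numbers pair them cannot be settled with 3 dishes a group. Correlations of deviations ran from -0.29 to 0.24 between arrays of the same number and from -0.26 to 0.39 between others. With the number as a replicate block 3 genes were called higher and 1 lower (Penk, Cxcl5, Rarres1 and Chac1). Fewer arrays and fewer residual degrees of freedom widen the test in these last fits. Of the named genes, 84 stayed called under quantile normalization and 43 without replicate 2 of MEFs + ALL + nilotinib. Against MEFs + nilotinib the count of named genes called was 35 with and 35 without the MEFs + ALL + DMSO array. Of 65 list medians, 44 kept their sign in all of their up to 10 alternatives. Signal over background could not be measured, and 3 called probesets had a mean under 5.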

Other observations

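The genes named here are outside the naming rule and were chosen after their values were seen. The rule had taken in every called fall, so the 77 other called genes were all higher, by 0.32 to 0.74. Secreted immune proteins among them were Tnfsf15 (0.72 ± 0.09), the pentraxin Ptx3 (0.62 ± 0.08), the lipopolysaccharide-binding protein Lbp (0.48 ± 0.08) and Il18 (0.43 ± 0.07). Ptx3 measured 10.37, 10.15 and 10.28 in MEFs + ALL + nilotinib and 9.71, 9.66 and 9.57 in MEFs + DMSO. Receptors were Il20ra (0.69 ± 0.10), Il4ra (0.47 ± 0.07), the chemokine receptor Cxcr6 (0.49 ± 0.08), the sphingosine phosphate receptor S1pr3 (0.65 ± 0.10) and the vasopressin receptor Avpr1a (0.41 ± 0.07). Aqp1, a water channel, rose by 0.64 ± 0.07, and Pdpn, podoplanin, by 0.41 ± 0.07.

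Enzyme and carrier families, also picked after their values were seen, held several called members. Of 24 cyclic nucleotide phosphodiesterases, which end cAMP and cGMP signals, 3 passed as higher and 0 as lower. Pde7b measured 8.74, 8.62 and 8.47 against 8.05, 7.93 and 7.73 (0.71 ± 0.10), Pde8b rose by 0.53 ± 0.09 and Pde4d by 0.40 ± 0.06 in the called one of its 3 probesets, which differed by 0.10 to 0.53. The whole family ran from -0.27 to 0.71 with a median of 0.06 and 15 differences above 0. Of 13 monocarboxylate transporters 3 passed, with a median of 0.09. Of 15 metallocarboxypeptidases 3 passed, Cpxm2, Cpxm1 (0.72 ± 0.08) and Cpb1 (0.52 ± 0.08), with a median of 0.17. The 40 called probesets without a single symbol comprised 37 with none and 3 with several, and are not described here.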
